A study of Mus musculus with 11 samples.

Results

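Floxed control gastrocnemius was described here from the 5 libraries of the series that came from mice without Cre, of 11 libraries in all. The members were taken from the genotype labels: 2 libraries from ZEB1 flx/flx mice (ZEB1 control 2 and 3) and 3 from ZEB2 flx/flx mice (ZEB2 control 1, 2 and 3). Each library was a pool of RNA from 2 mice, per the series design text, and the muscle was taken whole after 36 h of fasting. All 5 pools thus shared the fast and the floxed state of a ZEB gene. No fed muscle was sequenced among them, so a level below describes fasted muscle and no value can be read as an effect of fasting. The age and strain of the mice and the days of dissection are not given in the labels. The other 6 libraries carried HSA-Cre on the same floxed alleles. They entered the scaling of counts, the gene filter and the estimate of spread in the test between lines. Apart from that, only a spread within their own groups was read from them. The questions were which genes and gene classes took the counts, and which abundant genes varied most and least from pool to pool.

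The gastrocnemius is a calf muscle built mainly of fast-twitch fibres. Such fibres hold sliding filaments of myosin and actin, a sarcoplasmic reticulum whose pump returns calcium after each twitch, and a supply of ATP from creatine phosphate, glycolysis and mitochondria. In a prolonged fast muscle protein is broken down to release amino acids. FoxO transcription factors and glucocorticoids switch on the ubiquitin ligases Trim63 (MuRF1) and Fbxo32 (atrogin-1), autophagy genes and inhibitors of growth signalling, while fuel use shifts from glucose to fatty acids.

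Total counts ran from 27.3 M to 36 M per library, and pairs of libraries differed by 37.9 to 125 chi-square units per degree of freedom, far above counting noise. At this depth a 95% Wilson interval around the share of a single gene printed for a single library reached at most 0.00888 percentage points to either side. This covers counting error only, and sums over several genes, such as classes, have wider intervals. Values of single pools are given in the order ZEB1 control 2, ZEB1 control 3, ZEB2 control 1, ZEB2 control 2 and ZEB2 control 3. Levels in CPM are counts per 1000000 of the library total after TMM scaling. All 11 listed fibre markers were present in every pool, and together they stood at 110017, 133009, 125746, 125712 and 118090 CPM. Acta1, skeletal actin, took 2.62, 2.56, 2.33, 2.27 and 2.52% of counts, Myh4, the fastest myosin heavy chain, 2.06, 2.76, 2.68, 2.30 and 1.95%, and Ckm, muscle creatine kinase, 1.51, 1.62, 1.34, 1.43 and 1.42%. The 3 markers were thus among the most abundant genes of every pool.

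Other cell types were present at low levels. Listed fibroblast and matrix markers summed to 2248 CPM on average (1851 to 2540), erythroid markers to 1388 (1100 to 1778), smooth muscle and pericyte markers to 532.1 (479.0 to 582.1), endothelial markers to 447.3 (402.6 to 487.6), Schwann cell markers to 217.5 (145.9 to 325.8) and macrophage markers to 134.1 (97.6 to 162.8). Tendon markers ran from 89.5 to 181.5 CPM and adipocyte markers from 60.4 to 141.7. Lymphocyte markers summed to 0.514 CPM, each of the 5 under 1 CPM in every pool, and the epithelial list to 1.29 CPM with Epcam, Krt14 and Krt5 at no count. The satellite cell list, led by Pax7, reached 6.11 CPM. In such bulk samples fewer cells of a type and less RNA per cell cannot be told apart. The heart list stood at 45.2, 36.8, 6.09, 3.13 and 4.09 CPM, nearly all of it from Myh6, the alpha cardiac myosin heavy chain. The other 4 heart markers were under 1 CPM in each pool.

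The pools also differed in the sex of their mice. Xist, expressed from the inactive X of females, stood at 370.6, 154.5, 185.2, 0.419 and 128.2 CPM. The Y-linked gene Ddx3y stood at 0, 111.9, 58.1, 148.8 and 0 CPM. ZEB1 control 2 and ZEB2 control 3 therefore held no Y-linked transcript, ZEB2 control 2 almost no Xist, and the remaining pools both. Sex cannot be told apart from other differences between these 5 pools.

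A few genes took a large part of all counts. The 10 most abundant genes of each library held 26.3, 25.5, 27.4, 27.9 and 29.0% of its counts, the 100 most abundant 54.4% ± 1.30 (SD, n = 5) and the 1000 most abundant 76.1% ± 0.651. Between 47 and 71 genes were enough to reach 50% of the counts, fewest in ZEB2 control 3 and most in ZEB1 control 3. On average 12426 genes reached 1 CPM and 1082 reached 100 CPM.

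The single most abundant gene was mt-Co1, the catalytic subunit of cytochrome oxidase encoded in the mitochondrial genome, at 5.59, 5.21, 6.92, 6.57 and 6.97% of counts. It was lower in both ZEB1 control pools than in any ZEB2 control pool, a difference that did not pass the edgeR test between lines (adjusted p = 0.9999). Gm28437, annotated as an unprocessed pseudogene on chromosome 1, came next at 3.11% ± 0.306 (n = 5), ahead of Acta1 at 2.46% ± 0.153, the pseudogene Gm28661 at 2.45% ± 0.209, Myh4 at 2.35% ± 0.360 and the pseudogene Gm10925 at 2.34% ± 0.202. Mean shares of neighbours, from Acta1 to the mitochondrial cytochrome b gene mt-Cytb at 2.26% ± 0.201, lay closer together than their SD over pools. Gm28661, Gm10925 and mt-Cytb nevertheless kept this order in every pool. Acta1 and Myh4 changed places among them from pool to pool, so the ranks of Acta1 and Myh4 are not fixed by these data. The next genes were mt-Nd4 at 2.09%, the fast-fibre calcium pump Atp2a1 at 1.96%, mt-Nd1 at 1.92%, fast troponin T Tnnt3 at 1.62%, Ckm at 1.46%, mt-Nd2 at 1.34% and the glycolytic enzyme aldolase A, Aldoa, at 1.31%. The 20 genes of largest share closed with mt-Nd5, tropomyosin Tpm1, Gapdh, the fast regulatory light chain Mylpf, the pseudogene Gm29216 and Ttn, titin, at 0.71%.

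By annotated type, protein-coding genes took 89.9% ± 0.777 of counts (n = 5), unprocessed pseudogenes 9.10% ± 0.735, long non-coding RNAs 0.647% ± 0.0639 and the mitochondrial ribosomal RNAs 0.222% ± 0.0575. Nearly all of the pseudogene counts, 9.09% of the library, belonged to 6 neighbouring gene models on chromosome 1. They lie on the minus strand between positions 24612407 and 24616197 of GRCm38, a stretch of 3791 bases that repeats a part of the mitochondrial genome. Such nuclear copies of mitochondrial DNA are common in mammalian genomes.

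The copies were compared with the mitochondrial genes by aligning their annotated transcripts. Gm28437 matched mt-Co3 over 783 bases, Gm10925 matched mt-Atp6 over 678, Gm28661 matched mt-Co2 over 681 and Gm10222 matched mt-Nd4l over 294, each with 100% identity and no mismatch. Gm28438 differed from mt-Nd3 at 1 base in 345, and Gm29216, a copy of part of mt-Co1, at 1 base in 483 aligned. Gm29216 has 492 bases, and those outside the alignment were not compared. The first 90 bases of the coding gene mt-Co3 (mitochondrial genome, positions 8607 to 8696, plus strand) and of Gm28437 (chromosome 1, 24613882 to 24613971, minus strand) are shown because they are the same throughout, so a read from either cannot be told from the other by its letters. The same stretches of mt-Nd3 and Gm28438, and of mt-Co1 and Gm29216, are shown around the only differing base within each alignment, in capitals. These are T3C, counted from the first base of mt-Nd3, and A1066T, counted from the first base of mt-Co1, with the mitochondrial base first. All are GENCODE M21 transcript sequences.
mt-Co3: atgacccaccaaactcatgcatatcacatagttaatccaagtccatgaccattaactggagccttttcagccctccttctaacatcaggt
Gm28437: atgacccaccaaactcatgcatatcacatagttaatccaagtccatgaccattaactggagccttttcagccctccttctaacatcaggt
mt-Nd3: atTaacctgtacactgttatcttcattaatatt
Gm28438: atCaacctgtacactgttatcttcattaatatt
mt-Co1: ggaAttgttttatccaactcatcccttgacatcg
Gm29216: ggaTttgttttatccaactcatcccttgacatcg

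The deposited estimated counts did not divide these pairs evenly. Of the counts of the mt-Co2 pair, 98.1, 98.8, 98.2, 99.0 and 98.9% stood under the copy Gm28661, and 98.4, 97.7, 98.3, 97.6 and 98.1% of the mt-Co3 pair stood under Gm28437. The copy held 94.3% ± 0.422 (n = 5) of the mt-Atp6 pair, 82.1% ± 1.73 of the mt-Nd3 pair and 72.7% ± 2.12 of the mt-Nd4l pair, but only 10.9% ± 1.25 of the mt-Co1 pair, where the copy covers less than the whole gene. The division was much the same in all 5 pools. Over the 6 pairs the copies held 58.0% ± 2.44. Since the sequences are shared, counts of either member of a pair are uncertain, and the sum of a pair is the safer value.

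**Figure D1:**
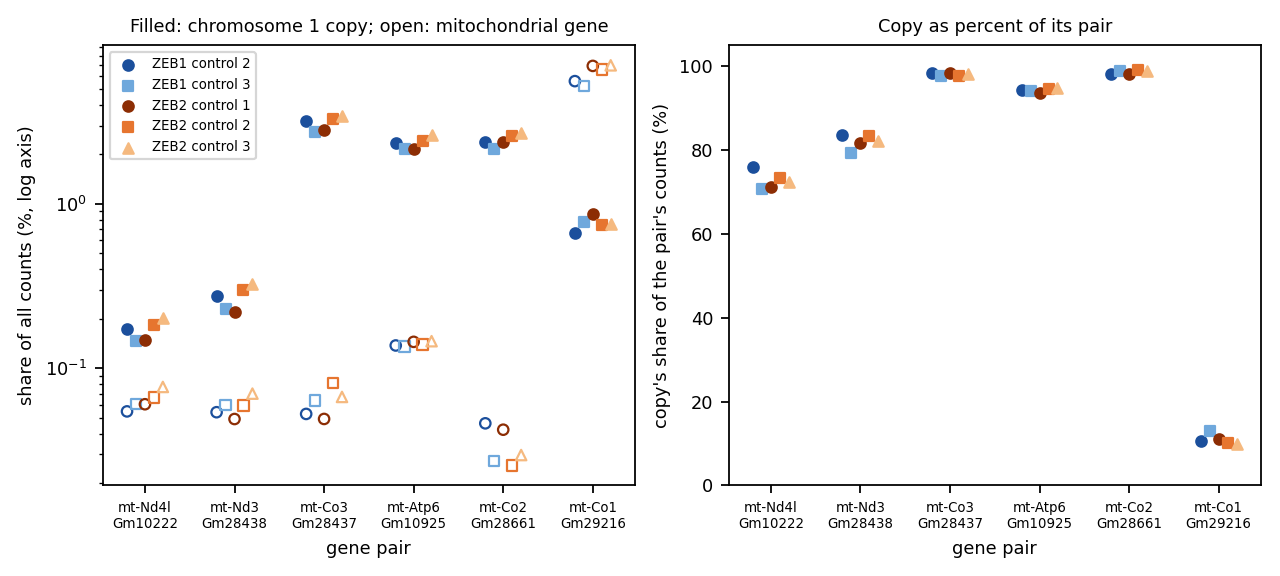
Counts of 6 mitochondrial genes and their chromosome 1 copies in each of the 5 control pools. The left panel gives the share of all counts on a log axis (copy filled, mitochondrial gene open) and the right panel the copy's percent of its pair; the copies of mt-Co2, mt-Co3 and mt-Atp6 hold over 93% of their pairs and the copy of mt-Co1 10.9% on average.

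Taken with the copies, RNA of mitochondrial sequence was the largest class. The mitochondrial genome itself held 15.2, 14.1, 16.0, 17.0 and 18.0% of counts, the copies 9.07, 8.23, 8.58, 9.52 and 10.1%, and both together 24.3, 22.3, 24.6, 26.5 and 28.1%. The copies followed the mitochondrial genome closely in that they made up 36.2% ± 0.967 (n = 5) of the sum. Both classes were lowest in ZEB1 control 3 and highest in ZEB2 control 3. Mitochondrial genes without an annotated copy in this block, among them mt-Cytb, mt-Nd1, mt-Nd4 and mt-Nd5, held 9.44% ± 0.886. They include mt-Atp8 (positions 7766 to 7969), which overlaps mt-Atp6 (7927 to 8607) and so shares sequence with Gm10925. Counts of mt-Atp8 are thus uncertain too. The mitochondrial ribosomal RNAs, mt-Rnr1 and mt-Rnr2, were low in these poly(A)-selected libraries and varied more than the coding genes, with mt-Rnr2 at 775.3, 1370, 1268, 1994 and 1671 CPM.

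Sarcomere genes formed the second block, 16.7, 16.9, 17.0, 16.1 and 16.6% of counts. This sum had an SD of only 0.345 percentage points around 16.66% (n = 5), against 2.21 for the mitochondrial sum. Thin filament genes held 7.47% ± 0.242, thick filament genes 5.33% ± 0.325 and genes of the Z-disc, M-band and titin 3.86% ± 0.169. Within the thin filament the 6 troponin genes took 2.89%, the 2 actins 2.51%, the 3 tropomyosins 1.56%, and nebulin and the capping genes 0.505%. Within the thick filament the 8 myosin heavy chains took 3.18% ± 0.338, the 7 light chains 1.66% and myosin binding proteins 0.491%. Heavy chains were highest in ZEB2 control 1 and ZEB1 control 3 (3.63 and 3.44%) and lowest in ZEB2 control 3 and ZEB1 control 2 (2.88 and 2.90%), while troponins stayed between 2.70 and 3.04%.

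Calcium handling and excitation genes held 3.56% ± 0.135 of counts (n = 5), most of it in pumps and buffers such as Atp2a1 and Pvalb, the calcium buffer parvalbumin. Glycolysis and glycogen genes held 5.01% ± 0.188, with 3.64% in glycolytic enzymes led by Aldoa and Gapdh, 0.903% in glycogen metabolism and 0.468% around pyruvate dehydrogenase. The phosphagen system added 1.75% ± 0.111, of which Ckm held 1.46%. Together with the sarcomere these classes came to 26.99% ± 0.521, close to the mitochondrial sum and steadier over pools.

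Nuclear genes of oxidative phosphorylation, 94 of which had counts, took 2.42% ± 0.162 (n = 5). ATP synthase, complex V, was the largest part at 0.868%, followed by complex I at 0.679%, complex IV at 0.411%, complex III at 0.323% and complex II at 0.144%. Citrate cycle and mitochondrial transport genes held 1.27% ± 0.0586 and fatty acid use genes 0.781% ± 0.174. The fatty acid class stood at 0.826, 0.727, 1.06, 0.678 and 0.615%, so that ZEB2 control 1 was above the rest. Fabp3, the muscle fatty acid binding protein, followed the same order of extremes with 708.5, 563.4, 1076, 496.7 and 467.7 CPM. Mb, myoglobin, which stores oxygen, stood at 2892, 2139, 2252, 2391 and 2677 CPM. Cytosolic ribosomal proteins held 2.08% ± 0.119 over 85 genes with counts, and translation factors 1.27% ± 0.0924.

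Protein breakdown took a smaller share of counts. Ubiquitin and proteasome genes held 1.21, 2.29, 1.59, 1.87 and 1.10% of counts. Autophagy and lysosome genes held 0.472, 0.747, 0.623, 0.624 and 0.435%. The list of fasting regulators, FoxO and glucocorticoid targets, growth inhibitors and clock genes, held 0.329, 0.762, 0.372, 0.509 and 0.304%. All 3 classes were highest in ZEB1 control 3 and lowest in ZEB2 control 3, with ZEB1 control 2 next to lowest. The ratio of the highest to the lowest pool was 2.08 for ubiquitin and proteasome genes, 1.72 for autophagy and lysosome genes and 2.51 for fasting regulators, beside 1.72 for fatty acid use, 1.63 for named long non-coding RNAs, 1.28 for the mitochondrial genome and 1.14 for ribosomal proteins. Of the 44 listed fasting regulators 16 reached 100 CPM. Extracellular matrix genes held 0.456% ± 0.0637, blood and immune genes 0.202% ± 0.0230, and genes of vessels, fat and nerve 0.186% ± 0.0264. Genes in none of the classes held 34.4% ± 1.12.

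**Figure D2:**
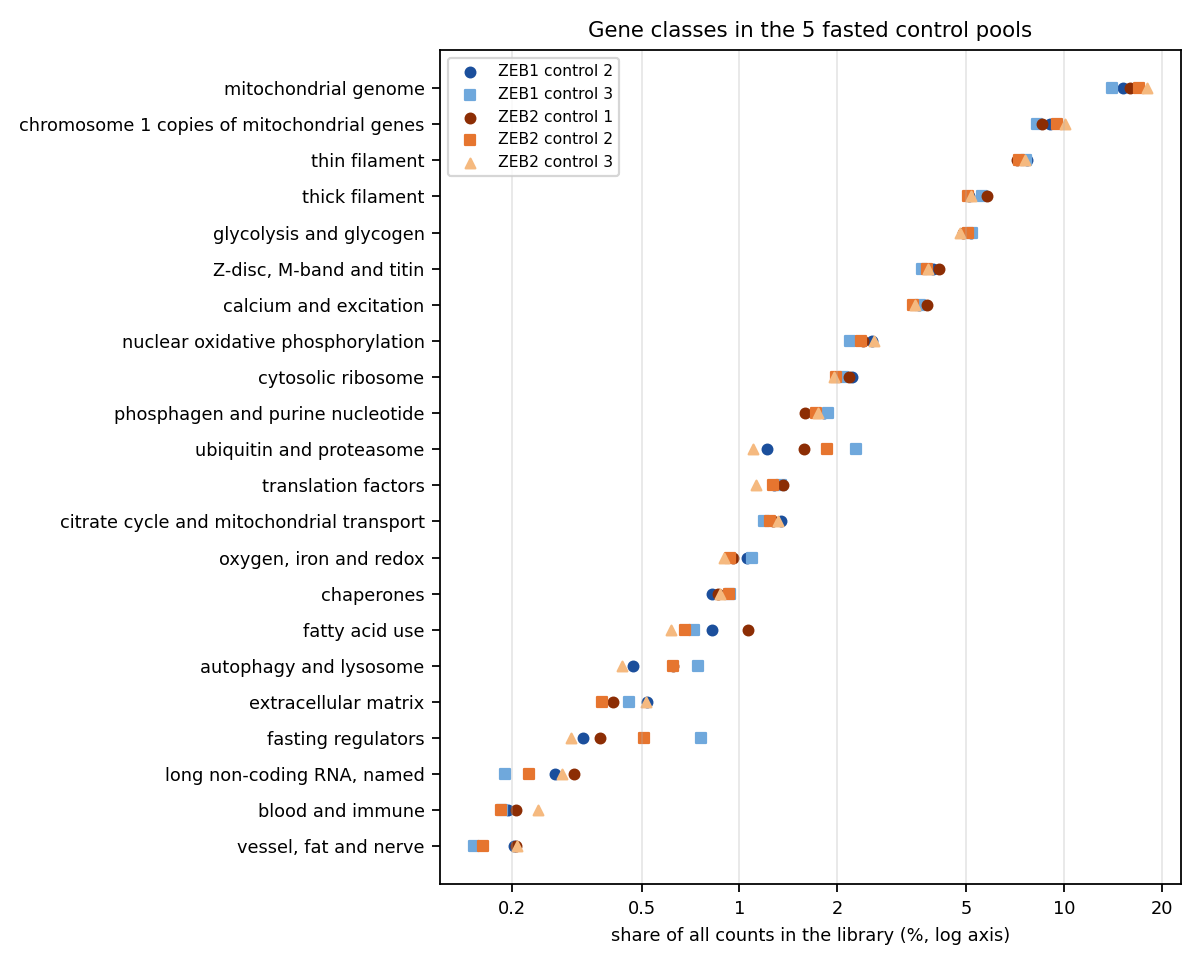
Share of all counts (log axis) of each gene class, 1 symbol per control pool. Sarcomere and glycolysis classes have tight symbols, fatty acid use runs from 0.615 to 1.06%, and ubiquitin and proteasome genes spread from 1.10 to 2.29% and fasting regulators from 0.304 to 0.762%, each highest in ZEB1 control 3.

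Counts favour long transcripts, so levels of different genes were compared after division by exon length and scaling to a sum of 1000000 per library. On this scale mitochondrial sequences led by far. The mitochondrial genome, at 16.05% of counts, held 27.1% ± 1.61 of the summed level (n = 5) and the copies, at 9.09% of counts, held 25.9% ± 1.08, 53.1% together. The highest single levels were mt-Co1 at 75373 ± 8473 per 1000000, Gm28437 at 73899 ± 4656, Gm28661 at 66902 ± 3303 and Gm10925 at 64202 ± 3123, followed by mt-Atp8 at 40897 ± 3314. Acta1 had the highest level of any gene outside mitochondrial sequence at 29889 ± 2267, followed by Tnnt3 at 19107 ± 1561, Mylpf at 13838 ± 1014, fast troponin C Tnnc2 at 13660 ± 1223, Atp2a1 at 10553 ± 1631, Ckm at 9386 ± 901.6 and Pvalb at 9255 ± 746.0. The means of the latter 3 lay close together beside their spread over pools. Atp2a1 exceeded Ckm in every pool, though by little in ZEB2 control 3 (8684 against 8624). Pvalb, at 9476, exceeded both in that pool, and Ckm and Pvalb changed order from pool to pool. Ttn, with 116825 bases of exon, stood at 113.1 ± 10.8 per 1000000 although it was among the 20 genes of largest count. The sarcomere classes together held 13.04% ± 0.610 of the level, with 7.89% in the thin filament, 3.35% in the thick filament and 1.79% in the Z-disc, M-band and titin class. Levels per length depended on which transcript gives the length. With the longest transcript Ckm, Atp2a1 and Pvalb left the 20 highest and fast troponin I Tnni2, myosin light chain Myl1 and Aldoa entered. The same genes left and entered with the annotated principal transcript, a choice added after the data were seen.

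**Figure D3:**
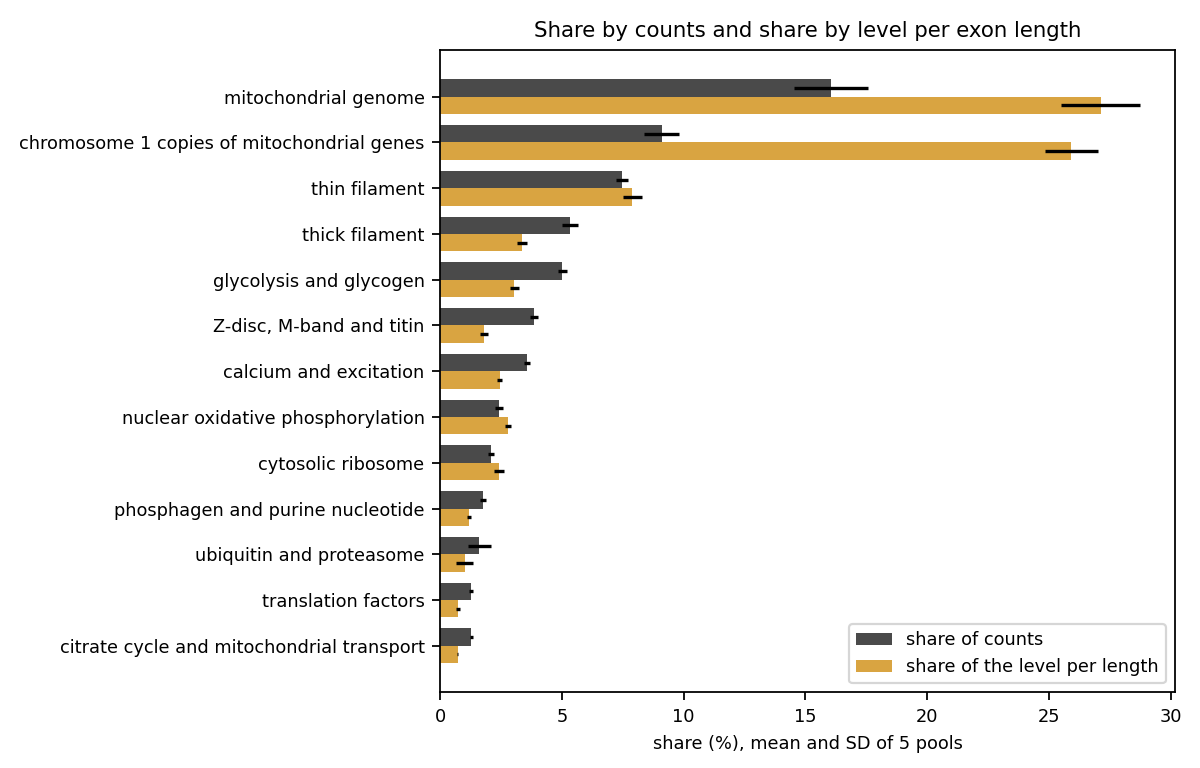
Share of counts (dark) and share of the level per exon length (light) for classes above 1% of counts, bars for the mean and lines for the SD of 5 pools. The mitochondrial genome and its chromosome 1 copies reach 53.1% of the level together, and thick filament and Z-disc, M-band and titin genes take less of the level than of the counts.

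The isoforms marked a fast muscle. Of the level per length of the 4 adult myosin heavy chains, Myh4 (type IIb) held 73.3, 81.6, 75.6, 77.8 and 70.1%, Myh1 (IIx) 15.6, 12.6, 18.0, 13.8 and 17.8%, Myh2 (IIa) 9.41, 5.18, 5.49, 7.57 and 10.9% and Myh7 (slow) 1.62, 0.597, 0.898, 0.840 and 1.25%. Myh4 was the largest part in each pool and its share was highest in ZEB1 control 3. Fast-to-slow ratios of level per length differed widely in size. They were 143 ± 57.9 for Tnnt3 over Tnnt1, 147.3 ± 54.1 for Tnni2 over Tnni1, 145.4 ± 42.1 for Atp2a1 over Atp2a2 and 34.1 ± 9.55 for Mylpf over Myl2 (n = 5 each). With the length of the principal transcript, ratios of the mean levels of these pairs were 92.7, 83.6, 100.7 and 19.8. Other pairs had smaller ratios, at 22.5 ± 5.48 for Casq1 over Casq2 and 11.3 ± 1.93 for Myoz1 over Myoz2. Ldha over Ldhb stood at 3.28 ± 0.632 and Mybpc2 over Mybpc1 at 2.55 ± 0.355. Of 14 such isoform pairs computed, ZEB1 control 2 had the lowest ratio in 9, for example 75.6 for Tnnt3 over Tnnt1 against 106.7 to 214.8 in the others, and the highest in 2, Casq1 over Casq2 and Actn3 over Actn2. Actn3 over Actn2, alpha-actinin of fast fibres and of all fibres, stood at 6.34 ± 0.929. Acta1 exceeded Actc1, cardiac actin, by 25.9 to 96.7 times, and most of that range came from Actc1, at 305.4, 596.7, 918.2, 254.0 and 424.5 CPM.

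Between pools, 1099 genes with a mean of at least 100 CPM over the 5 pools were compared by the SD of log2(CPM + 1). The median SD was 0.186, the smallest 0.031 and, apart from Xist at 3.22, the largest 1.48. Counting alone would give a median SD of 0.0193, so the typical abundant gene varied 10.8 times more than its counting error. The threshold itself fell between Hp1bp3, at 100.1 CPM and an SD of 0.26, and Capn3, left out at 99.9 CPM and an SD of 0.21. Genes below are ranked by this SD, so their SDs in these pools are a description and carry no test. The most abundant genes lay on both sides of the median SD. Acta1 at an SD of 0.06 was among the 110 steadiest genes, and Ckm at 0.12 and Tnnt3 at 0.15 were below the median. In contrast mt-Co1 at 0.23 and Myh4 at 0.26 were above it.

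**Figure D4:**
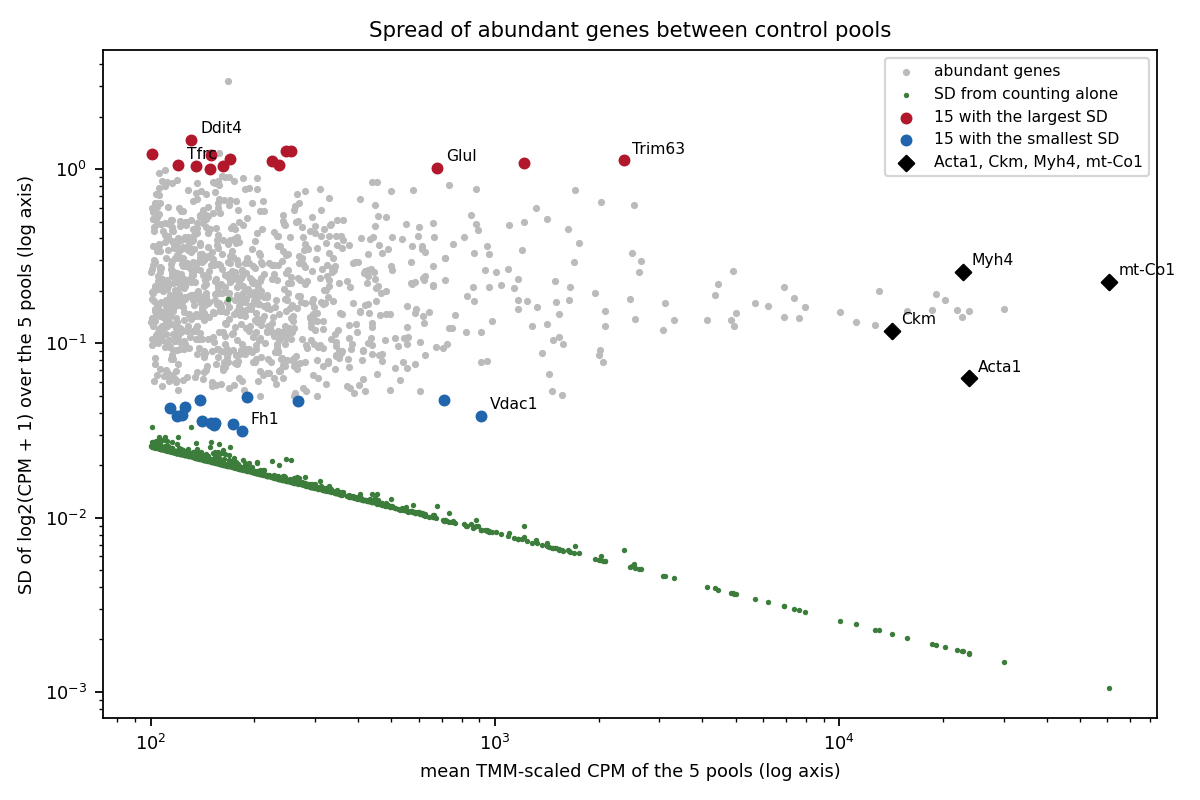
SD of log2(CPM + 1) over the 5 control pools against mean CPM for 1099 abundant genes (both axes logarithmic), with the SD that counting alone gives in green. The 15 named genes of largest SD lie near and above 1.00, the 15 of smallest SD at 1.63 to 4.90 times their counting SD, and Acta1, at 0.06, lies below Myh4, at 0.26.

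Of the 15 named genes of largest spread, 4 belonged to the lists of fasting regulators and of ubiquitin and proteasome genes, and 9 to no list. Ddit4, an inhibitor of mTORC1 also called REDD1, stood at 27.7, 377.1, 39.5, 136.5 and 75.9 CPM, a 13.6-fold range and an SD of 1.48. Depp1, a FoxO-responsive gene linked to autophagy, stood at 60.6, 488.2, 260.0, 367.4 and 98.5 CPM (SD 1.27), and Sesn1, a sestrin, of a family that restrains mTORC1 under stress, at 58.8, 531.7, 198.9, 339.5 and 105.3 CPM (SD 1.27). All 3 were highest in ZEB1 control 3 and lowest in ZEB1 control 2.

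Trim63, the ligase that marks myosin and other sarcomere proteins for the proteasome, stood at 769.9, 4750, 2139, 3197 and 956.2 CPM, an SD of 1.12. Fbxo32, its partner in atrophy, had the same order of pools at 801.5, 2690, 1950, 2147 and 973.2 CPM (SD 0.76). Retreg1, a receptor for autophagy of the endoplasmic reticulum, stood at 422.6, 2187, 1242, 1760 and 478.5 CPM (SD 1.08), and Npc1, which exports cholesterol from lysosomes, at 71.9, 443.3, 237.2, 280.0 and 90.6 CPM (SD 1.11). Glul, glutamine synthetase, stood at 296.9, 1501, 471.5, 839.4 and 294.3 CPM (SD 1.01). In each of these 5 genes ZEB1 control 3 and ZEB2 control 2 were among the 2 highest pools and ZEB1 control 2 and ZEB2 control 3 were the 2 lowest.

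The remaining named genes of large spread were Arrdc3, an arrestin-domain protein (35.0 to 252.4 CPM), Lrrc58 (39.5 to 338.7) and Lrrc30 (37.1 to 278.4), which carry leucine-rich repeats, Zwint, a kinetochore protein (49.1 to 286.2), Ranbp9, a scaffold of a ubiquitin ligase (45.6 to 260.5), Mustn1 (43.7 to 271.6), Slc7a2, a carrier of cationic amino acids (81.6 to 427.7), and Tfrc. Slc7a2 was highest in ZEB2 control 1, at 427.7 CPM. Xist and 1 unnamed gene model were passed over in this ranking. ZEB1 control 3 was the highest pool for 12 of the 15 and ZEB1 control 2 the lowest for 12.

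Tfrc, the transferrin receptor that takes up iron, went another way, at 85.4, 58.7, 40.9, 183.3 and 230.9 CPM (SD 1.05). It was lowest in ZEB2 control 1 and highest in ZEB2 control 3, a pool in which Trim63 and Fbxo32 were low. A few other genes, picked after their values were seen, had a like order: Igfbp5, an IGF-binding protein, at 134.2, 86.2, 67.6, 209.1 and 286.2 CPM, Amd1, a polyamine enzyme, at 115.3, 128.8, 94.5, 351.7 and 328.6 CPM, and Ppp1r3c, which directs a phosphatase to glycogen, at 101.7, 128.4, 61.5, 209.6 and 266.3 CPM.

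**Figure D5:**
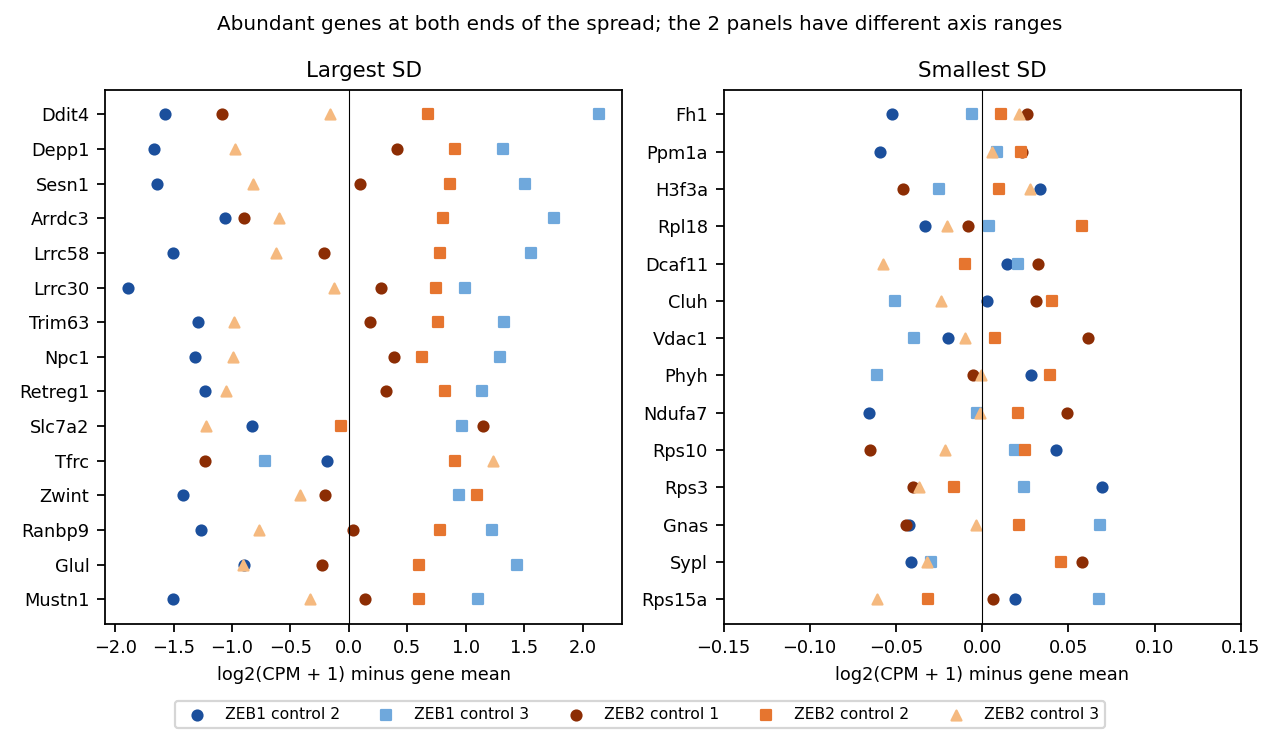
Deviation of each control pool from the gene's mean, in log2(CPM + 1), for the 15 named genes of largest SD (left) and 14 of the 15 of smallest SD (right); the panels have different axis ranges. On the left ZEB1 control 3 lies rightmost for 12 genes and ZEB1 control 2 leftmost for 12, and Tfrc departs from that order.

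An order with ZEB1 control 3 highest and ZEB1 control 2 lowest was common among variable genes. Of the 110 genes with the largest spread, 74 (67.3%) were highest in ZEB1 control 3, against 26.5% of all 1099 abundant genes, and 64 (58.2%) were lowest in ZEB1 control 2, against 31.6%. ZEB2 control 3 was the lowest pool for 28 of them (25.5%), near its 26.9% among all abundant genes. The listed fibre markers, by their summed TMM-scaled level given above, were also lowest in ZEB1 control 2 and next lowest in ZEB2 control 3. They were highest in ZEB1 control 3, though within a range of 1.21-fold. This order depends on the scaling, as the TMM factor was 1.115 in ZEB1 control 2 and 0.9719 to 1.031 in the other control pools. By share of counts Acta1 was highest in ZEB1 control 2, at 2.62%, and the sarcomere classes were lowest in ZEB2 control 2, at 16.1%. ZEB1 control 2 and ZEB2 control 3 were also the pools without Y-linked transcripts. Total counts were smallest in ZEB1 control 2 and largest in ZEB2 control 3. The part of fibre content, sex and depth in the spread was not tested.

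By class, 13 of the 16 abundant fasting regulators were among these 110 most variable genes, and their median SD was 0.77 against 0.186 for all abundant genes. This list was drawn up with earlier results of these data known. Among its members Cry2, a clock repressor (SD 0.95), Eif4ebp1, an inhibitor of translation that mTORC1 controls (0.89), Fkbp5, a glucocorticoid target (0.73), and the cell cycle inhibitor Cdkn1a (0.72) varied widely, while the insulin receptor Insr (0.25) and the clock genes Tef and Nr1d1 (0.29 each) were not among them. Ubiquitin and proteasome genes had a median SD of 0.38 with 9 of 42 among the 110 most variable, and autophagy and lysosome genes 0.39 with 5 of 14. Within the former, Psme4, a proteasome activator, had an SD of 0.67 and Psmd8, a subunit of the regulatory particle, 0.64, but Uba1, the main ubiquitin-activating enzyme, only 0.06. Within the latter, Gabarapl1 stood at 100.5, 334.1, 209.3, 211.5 and 72.8 CPM (SD 0.89) and Bnip3, a receptor for mitophagy, had an SD of 0.81, whereas the lysosomal membrane protein Lamp1 stayed between 354.2 and 384.3 CPM (SD 0.06).

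Metabolic classes also held variable members. Pfkfb3, which makes the activator of phosphofructokinase, stood at 788.3, 579.5, 372.6, 277.4 and 178.0 CPM (SD 0.85) and did not overlap between lines, without passing the edgeR test given below, while Pfkm, the muscle phosphofructokinase itself, stayed between 1968 and 2254 CPM (SD 0.08). Pdk4, which shuts off pyruvate dehydrogenase in fasting, stood at 2278, 2728, 3076, 3403 and 1155 CPM (SD 0.62), low in ZEB2 control 3 alone. Pnpla2, the lipase that starts triglyceride breakdown, stood at 266.8, 586.0, 638.6, 490.5 and 258.4 CPM (SD 0.62). Casq1, the fast calcium store protein, had another order of pools, at 1236, 878.8, 775.8, 1388 and 1806 CPM (SD 0.49). Collagen gene Col3a1 stood at 189.2, 95.1, 106.0, 186.9 and 265.2 CPM (SD 0.62).

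The 15 steadiest abundant genes included 4 ribosomal protein genes and several of mitochondria. Fh1, fumarate hydratase of the citrate cycle, stood at 177.4, 183.2, 187.3, 185.4 and 186.7 CPM, an SD of 0.031. Vdac1, the main channel of the outer mitochondrial membrane, stood at 898.6, 886.4, 950.5, 915.7 and 904.5 CPM (SD 0.038), and Rpl18, a protein of the large ribosomal subunit, at 150.0, 153.9, 152.6, 159.8 and 151.3 CPM (SD 0.035). Others were the phosphatase gene Ppm1a, the histone H3.3 gene H3f3a, Dcaf11, Cluh, which binds messages of mitochondrial proteins, the peroxisomal enzyme gene Phyh, Ndufa7 of complex I, ribosomal protein genes Rps10, Rps3 and Rps15a, Gnas, the stimulatory G protein, and Sypl. The SDs of the 15 steadiest genes ran from 0.031 to 0.049, a median of 1.76 times the counting error. Ribosomal protein genes as a class had a median SD of 0.08, with 37 of 78 among the 110 steadiest, and nuclear oxidative phosphorylation genes 0.099, with 17 of 73. Which genes led this end was less settled than at the other, as 2 to 11 of the 15 were named again under other scalings, but all 15 stayed in the steadiest 25% under each of these.

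Promoters of a steady and of a variable abundant gene are shown from 250 bases before to 50 after the start given by RefSeq (GRCm38.p6), with short motifs found on either strand in capitals. Acta1 (chromosome 8, 123894726 to 123895025, minus strand) is shown as the most abundant nuclear gene outside the copies, with a CArG box, the site of serum response factor, from position -73 and the motif TATAAA from position -7. Its RefSeq start lies 24 bases upstream of the GENCODE start. Trim63 (chromosome 4, 134314870 to 134315169, plus strand) is shown as the gene with the most counts among the 15 variable genes, with the FoxO motif GTAAACA on the minus strand from position -194 and TATAAA from position -31.
Acta1: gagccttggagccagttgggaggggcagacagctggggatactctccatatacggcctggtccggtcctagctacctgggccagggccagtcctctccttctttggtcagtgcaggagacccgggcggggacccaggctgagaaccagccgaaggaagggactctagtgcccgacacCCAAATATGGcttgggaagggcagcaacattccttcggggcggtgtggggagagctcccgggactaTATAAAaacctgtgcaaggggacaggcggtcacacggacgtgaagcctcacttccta
Trim63: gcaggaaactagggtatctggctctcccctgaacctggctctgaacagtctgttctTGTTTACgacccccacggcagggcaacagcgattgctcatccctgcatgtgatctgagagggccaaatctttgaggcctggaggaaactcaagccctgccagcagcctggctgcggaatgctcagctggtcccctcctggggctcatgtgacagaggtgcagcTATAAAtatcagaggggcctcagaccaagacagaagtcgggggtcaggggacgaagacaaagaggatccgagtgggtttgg
A CArG box was found in 1.57% of all 27025 promoters in the RefSeq table, TATAAA in 14.2% and the FoxO motif in 3.51%. The FoxO motif was present in 2 of the 13 variable genes with a table entry, Sesn1 and Trim63. It was present in 0 of the 14 steady genes with an entry and in 2.06% of 872 abundant genes. The window of Depp1 held no FoxO motif. TATAAA was present in 2 of the 13 variable and 2 of the 14 steady genes, and a CArG box in 0 of either. An E-box, another short motif, was present in 1 and 2, and a CCAAT box in 6 and 3. The abundant genes had TATAAA in 11.2% and a CCAAT box in 39.7%. None of these counts was tested. A match is a run of letters in this window and was not tested for binding.

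Few genes differed by a test between the ZEB1 and ZEB2 floxed lines. In the edgeR quasi-likelihood fit over all 11 libraries, 3 of 15416 genes (0.0195%) passed a Benjamini-Hochberg adjusted p of 0.05 between ZEB2 and ZEB1 controls, all 3 lower in ZEB2 controls. They were the processed pseudogenes Gm3375 (15.4 and 11.2 against 0.278, 0.193 and 0.188 CPM, log2 fold change -5.90 with an SE of 0.29), Gm7887 (3.12 and 3.11 against 0.0928, 0.0967 and 0.242 CPM) and Gm5503 (1.74 and 1.64 against 0.0928, 0 and 0.0269 CPM). Pseudogenes share sequence with their parent genes, so these counts are uncertain. Of the 1099 abundant genes 0 passed, and 15 had an unadjusted p under 0.05, while 512 did among all genes tested. DESeq2 called 16 genes and limma-voom 2. Of the 15 variable genes 4 had a line difference larger than its SE, and none of the 15 passed. The log2 difference was -1.27 (SE 0.94) for Ddit4 and -0.40 (SE 0.78) for Trim63, each with an edgeR adjusted p of 0.9999. With 2 pools against 3 a difference of moderate size could pass unseen, and p-values here measure the spread between pools.

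The spread was also read in the 6 knockout libraries, which had entered the ranking only through the TMM scaling, as the SD within each knockout group. The 15 variable genes had a median SD of 0.88 there (0.45 to 1.10), the 15 steady genes 0.10 (0.05 to 0.37) and all 1099 abundant genes 0.21. Of the 15 variable genes 14 were also among the 110 most variable within knockout groups, where Trim63 had an SD of 0.88, Ddit4 0.94 and Tfrc 1.10. The exception was Slc7a2 at 0.45. Of the 15 steady genes 7 were among the 109 steadiest there and 1, Cluh at 0.37, lay above the median. Across the 1099 genes Spearman's rho between both SDs was 0.757, given as a description since genes are not independent and share libraries. Among class members, Rpl18 had an SD of 0.05 and Acta1 of 0.07 within knockout groups, and Ppp1r3c, at 0.83 in the control pools, had 0.21.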

How the data were processed

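Libraries were prepared from whole-muscle RNA with a kit that selects poly(A) RNA and keeps strand, per the labels' protocols. The deposited values are estimated counts, whole numbers that the authors did not normalize. The submitters' processing notes list STAR, RSEM, DESeq2 and GRCm38; versions, the gene annotation and the use of strand in counting are not given in the sources. The unit rests on the values and on the mention of RSEM, which divides reads of similar genes by estimation. Near-identical, overlapping or antisense genes therefore have uncertain counts.

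The table listed 55385 genes; GENCODE M21 on GRCm38 held 54487 of their identifiers with version and 55144 without. Shares are percents of a library's counts. TMM factors came from edgeR 4.0.16 in R 4.3.3 over 11 libraries, after filterByExpr (minimum count 10, minimum total 15). Spread is the SD over pools of log2(CPM + 1) for genes with a mean of at least 100 CPM. Levels per length are counts over union exon length of GENCODE M21, scaled to a sum of 1000000. The line test was edgeR's robust quasi-likelihood test with 4 group means and Benjamini-Hochberg adjustment. It was run on simulated counts with the same low dispersion for every gene, which does not cover genes as variable as those named above. An SE is the absolute log2 fold change over the square root of F. DESeq2 1.42.0 and limma 3.58.1 (voom) were alternatives. Copies were aligned with BLAST 2.17.0. Tables and figures used Python 3.11.15.

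Named genes were the 3 markers, the 20 of largest share, the 20 of highest level per length, the 15 of largest and 15 of smallest SD (unnamed gene models, pseudogenes and sex-linked genes passed over), up to 4 members of each class by share, and Xist with Y-linked genes; further members are named, after their values were seen, as extremes of spread in their class. A few genes that the rule selects are not reported here. The members, classes and lists were chosen with earlier results of these data known, and the class of chromosome 1 copies was formed after the counts were seen. Alternatives were other scalings, minimum levels, pseudocounts, lengths and denominators, the SD within lines, other tests and each pool left out in turn. Labels do not say whether pools shared a litter or day. Replicate numbers 2 and 3 occur in both control groups, and same-numbered pools deviated from their group means with correlations of -0.286 and -0.416, so the numbers were not taken to pair pools.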

Additional observations from a re-analysis of the deposited data

Results flagged for a closer look

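For 151 values (class shares and named genes), the pool at either end was set against the other 4, and 5 values (3.31%) had 1 pool far from the rest, where chance flags about 1 in 20. Cd36, a fatty acid carrier, stood at 846.0 CPM in ZEB2 control 1 and between 429.0 and 537.3 CPM in the other pools. Tpm1 stood at 8323 CPM in the same pool and between 10301 and 10700 elsewhere. Col4a1, a collagen of basement membranes, stood at 260.4 CPM in ZEB2 control 3 against 180.8 to 203.7. Rps2 stood at 454.7 CPM in ZEB1 control 2 against 556.7 to 593.7. Ppm1a stood at 146.7 CPM in ZEB1 control 2 against 153.5 to 155.4, and it is among the 15 steadiest genes all the same.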

How the results depend on the processing

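The share of the 10 most abundant genes and those of the mitochondrial genome, sarcomere, glycolysis, ribosome and ubiquitin classes moved by less than 1 SD when any pool was left out or both lines were weighted equally. Neither change can move a mean of these pools by as much as 1 SD, so this is no test of stability. With 1 pool left out in turn, the 10 most abundant genes held 26.75 to 27.63%, against 27.2% with all pools. Ubiquitin and proteasome genes held 1.44 to 1.74%, against 1.61%. Next the mitochondrial genome was taken out of the total and its chromosome 1 copies were kept. The 10 most abundant genes then held 23.9%, sarcomere genes 19.8%, glycolysis and glycogen genes 5.97% and ribosomal proteins 2.48%. By level per length these 3 classes held 13.04, 3.04 and 2.42%, ubiquitin and proteasome genes 1.01% and the mitochondrial genome 27.1%. With the copies added, the mitochondrial genome held 25.1% of counts. The 10 highest levels per length summed to 48.2% of all, and to 42.4% with the longest transcript, 39.9% with the principal transcript and 46.2% for nuclear genes only. Nuclear genes here still include the chromosome 1 copies, so part of that 46.2% is mitochondrial sequence.

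The median SD between pools stayed between 0.175 and 0.193. Of the 15 variable genes, 8 were named again at a minimum of 50 CPM and 3 at 300 CPM, where only 3 were abundant enough. Leaving out a pool kept 9 to 13, with 9 without ZEB1 control 2, which also lowered the SDs of Lrrc30 and Mustn1 by over 1.5 times. Of the 15 steady genes, 8 were named again with DESeq2 size factors, 2 with total counts only, 9 at 50 CPM, 2 at 300 CPM, 4 by the SD within lines and 3 to 7 with a pool left out.

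The count of genes called between lines, 3, became 16 with DESeq2, 5 with its size factors in edgeR and 7 without a filter. With a replicate block on the numbers it was 1. Leaving out a pool gave 1 to 4, with 1 without ZEB2 control 1 and 1 without ZEB2 control 2. Depth limits the order of the steadiest genes, whose SDs were a median of 1.76 times their counting error.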
